A study of Mus musculus with 14 samples.

Results

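The genes described here are 9 lymphocyte genes read in mouse liver: Cd3d, Cd3e, Cd3g, Cd4 and Cd8a of T cells, Cd79a, Cd79b and Ms4a1 of B cells, and Nkg7 of cytotoxic cells. They were chosen by name, out of 19751 named genes on the array, and each was found through the RefSeq accession of its probes. The 9 genes had 12 of the 39429 probes, with a second probe each for Cd4, Cd8a and Nkg7.

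Lymphocytes reach the liver through the blood and are held in its sinusoids, and before birth the liver is itself a site of blood formation. On a T cell the antigen receptor signals through the CD3 chains, and CD4 or CD8 binds the MHC molecule beside it. On a B cell the surface antibody signals through the paired chains CD79a and CD79b.

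The liver RNA came from CD-1 mice in 6 groups: male (M) and female (F) mice aged 3, 4 and 8 wk, written M3, F3, M4, F4, M8 and F8. A pool held the livers of 5 mice at 3 wk or of 6 mice at 4 and 8 wk, so the spread between single mice was not measured. Males were set against females at each age (M3/F3, M4/F4, M8/F8), and 8 wk against each younger age in males (M8/M3 and M8/M4) and in females (F8/F3 and F8/F4). In each of these 7 comparisons 2 Agilent arrays carried separate pools, with the dyes exchanged between array 1 and array 2. The same M8 pools stood in all 3 comparisons that name M8, and likewise for the other groups, so comparisons that share a group are not independent of each other.

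Values are log2 ratios of the group named first over the group named second. A gene was called when limma gave an adjusted p under 0.05 and the ratio passed 1.5-fold in either direction, and when both arrays showed 1 or both of the groups well above background by the scanner software's own flag; a gene that did not meet the last condition was not tested. Of the spots on an array, 55.2% to 77.2% were well above background in a channel, and no spot was saturated. The study's methods describe the dyes of the first pool the other way round from the labels, which were followed here; they gave the Y-linked gene Ddx3y a log2 ratio of 6.56, 6.29 and 6.58 in M3/F3, M4/F4 and M8/F8. The 4 hepatocyte genes with a probe were well above background in all 28 channels (14 arrays with 2 colours). In whole liver, fewer cells of a type and less RNA per cell cannot be told apart.

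Set among the brightest probe of each named gene, the bright Cd4 probe stood at percentile 77.0 by mean signal. The other 11 stood between percentiles 19.6 and 54.4 of that set. Cd3d, Cd3e, Cd3g, Cd79b, Ms4a1 and the brighter probes of Cd4 and Nkg7 were well above background in all 28 channels. Near background were Cd8a, whose better probe was well above background in 14 of 28 channels and whose other probe was so in 1, and Cd79a, with 4 of 28 channels. The second probe of Cd4 passed in 16 of 28 channels. The second probe of Nkg7 passed in 27 of 28, and the channel that did not was an M8 channel.

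**Figure D1:**
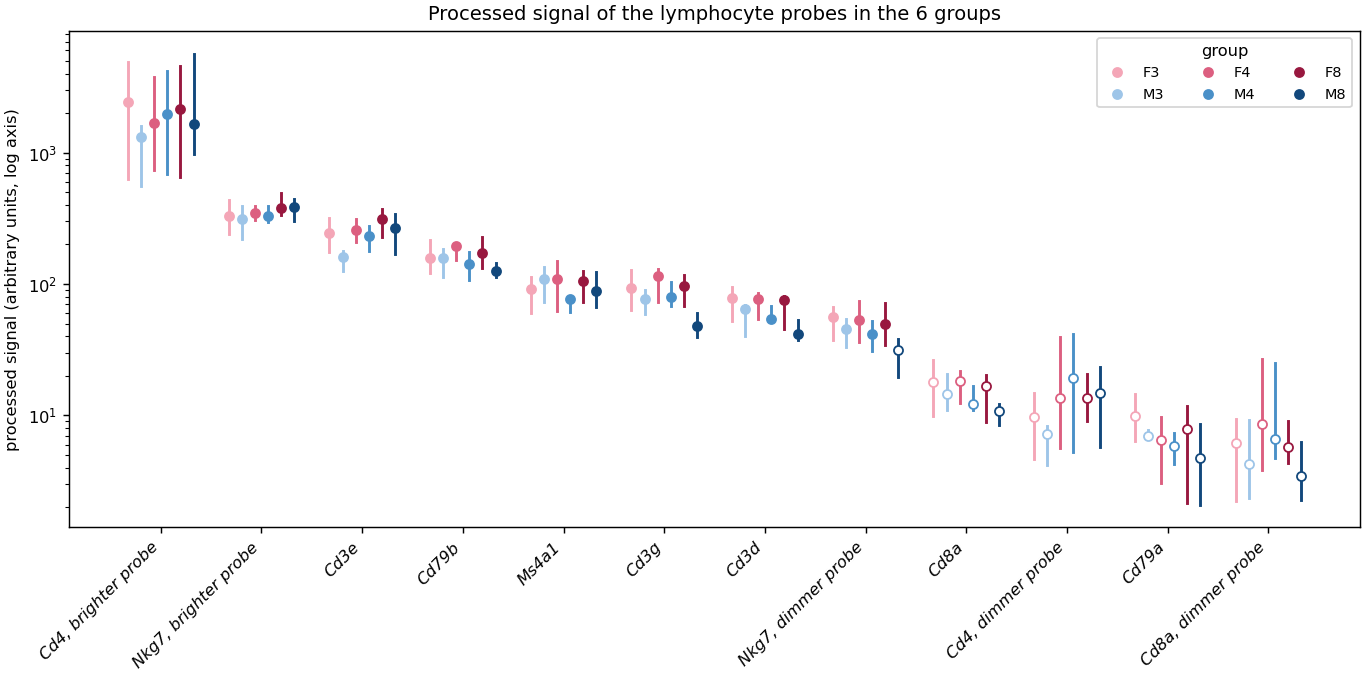
Processed signal (arbitrary units, log axis) of the 12 probes in the 6 groups. Points are medians and lines run from the lowest to the highest channel of a group (4 channels at 3 and 4 wk, 6 at 8 wk), and an open point marks a group not well above background in every channel. Signals were set against each other only within a probe. Cd3g and Cd3d have their lowest median in M8, and the probes of Cd79a and Cd8a and the dimmer Cd4 probe lie at the bottom of the plot with open points throughout.

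Of the 9 genes, 1 was called in M8/F8, 2 in M8/M3 and 1 in M8/M4, all of them lower, and none in the other comparisons. Cd3g was lower in 8 wk male liver in all 3 comparisons, and Cd8a was called in M8/M3 only. Over all named genes the percentage called in M8/F8 was 7.1% (2.89% higher, 4.21% lower), in M8/M3 18.9% (8.22% and 10.7%) and in M8/M4 11.7% (4.8% and 6.92%). It was 0.727% (0.255% higher, 0.472% lower) for M3/F3 and 1.9% (0.795% and 1.11%) for M4/F4, and for the females 12.6% (5.51% and 7.13%) from 3 to 8 wk and 6.72% (2.66% and 4.06%) from 4 to 8 wk. Counts of 1 of 7 genes tested in M8/F8, 2 of 8 in M8/M3 and 1 of 8 in M8/M4 are too few to be set apart from those shares. Beside the counts of 0, the number with a limma adjusted p under 0.05 and no threshold on the ratio was 2 in F8/F3, 0 in F8/F4, 0 in M3/F3 and 1 in M4/F4.

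**Figure D2:**
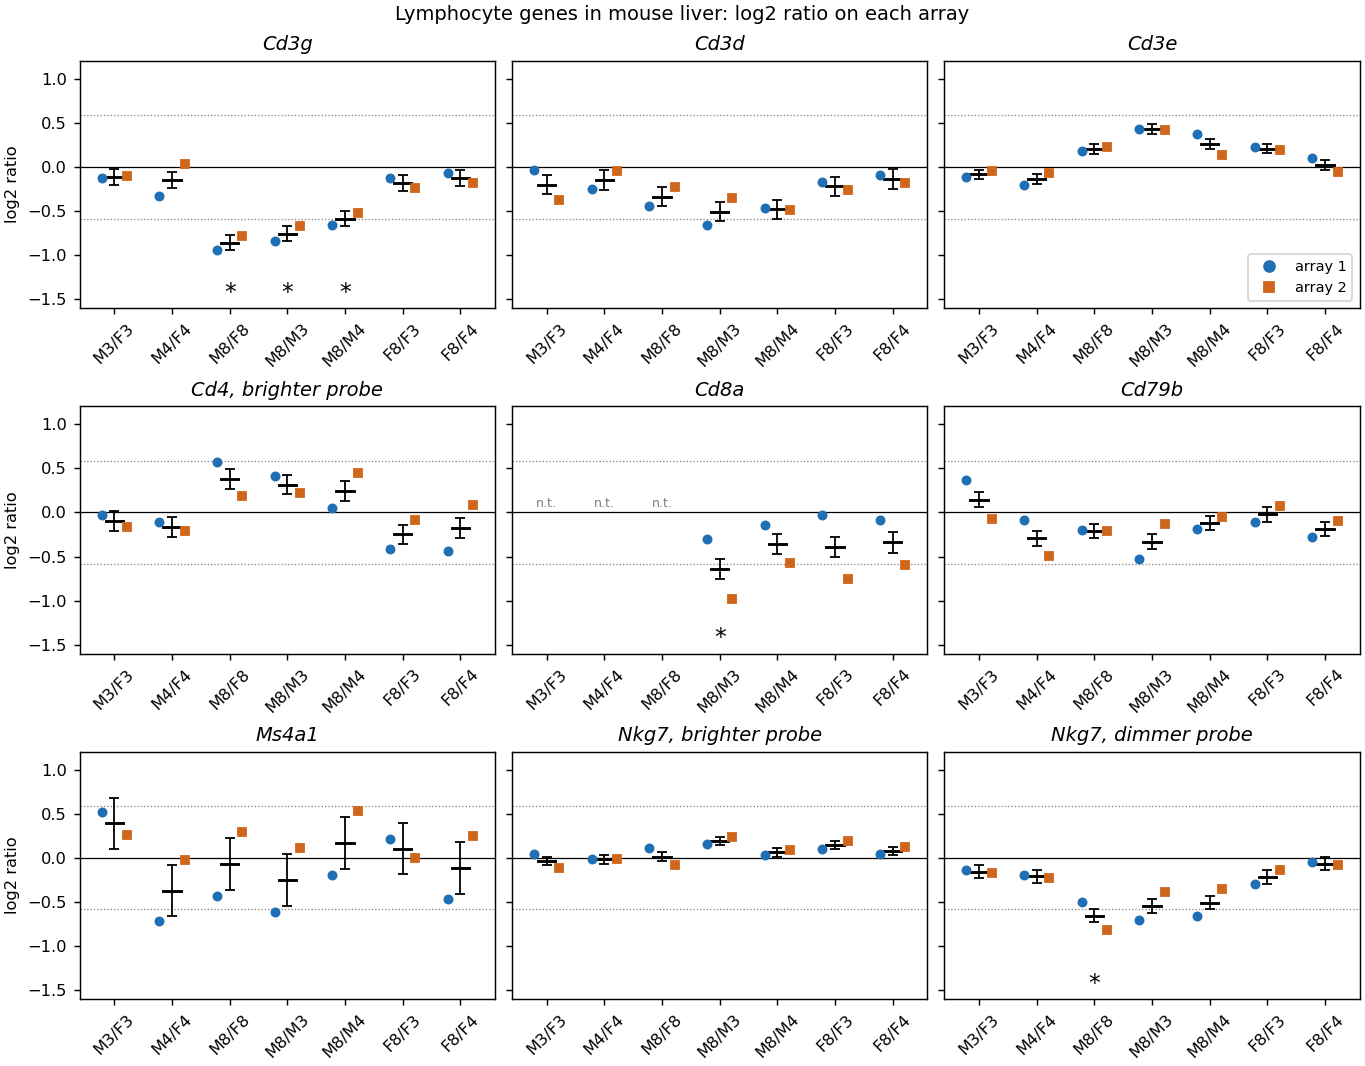
Log2 ratio on each array (circle, array 1; square, array 2) for 9 probes of 8 genes in the 7 comparisons, with the fitted value and its standard error (bar). Dotted lines mark 1.5-fold, an asterisk marks a call and n.t. a comparison in which the probe was not tested. Cd3g carries 3 asterisks, all for M8 over another group, while Cd3e and Cd4 lie above 0 in the same 3 comparisons.

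Cd3g, Cd3d and Cd3e encode the gamma, delta and epsilon chains of CD3, which carry the signal of the T cell receptor into the cell. In the RefSeq annotation of GRCm38.p6 the 3 genes lie side by side on chromosome 9, with 1337 bases between Cd3g and Cd3d, which are read in opposite directions away from that gap, and 11682 bases between Cd3d and Cd3e. The 190 bases before each gene are shown because Cd3g and Cd3d differed from Cd3e in the direction of their ratios; they come from RefSeq (GRCm38.p6), run 5′ to 3′ on the strand of the gene, and have GGAA or TTCC (the core of ETS factor sites, on either strand) in capitals. They lie at chr9:44980432-44980621 (minus strand), chr9:44981579-44981768 (plus strand) and chr9:45009664-45009853 (minus strand).
Cd3g: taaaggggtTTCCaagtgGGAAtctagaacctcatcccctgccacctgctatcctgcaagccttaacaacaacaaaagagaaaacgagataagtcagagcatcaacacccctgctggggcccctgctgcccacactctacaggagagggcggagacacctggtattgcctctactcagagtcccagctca
Cd3d: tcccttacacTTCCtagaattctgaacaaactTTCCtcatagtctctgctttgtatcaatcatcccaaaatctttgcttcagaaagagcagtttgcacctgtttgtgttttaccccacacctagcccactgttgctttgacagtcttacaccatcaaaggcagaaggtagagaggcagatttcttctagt
Cd3e: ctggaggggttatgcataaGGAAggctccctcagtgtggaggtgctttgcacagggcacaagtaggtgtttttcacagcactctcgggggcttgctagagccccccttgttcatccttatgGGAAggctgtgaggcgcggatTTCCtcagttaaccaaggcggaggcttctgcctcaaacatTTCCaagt

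The ETS core matched 2 times before Cd3g, 2 times before Cd3d and 4 times before Cd3e, and 88.1% of 23040 promoters of that length held at least 1 match. The E-box CANNTG, which reads alike on both strands, matched 3 times before Cd3g, 1 time before Cd3d and 0 times before Cd3e, and was found in 57.5% of promoters. None of the 3 stretches held the RUNX motif TGTGGT or ACCACA (11.2% of promoters) or the TATA box TATAAA (6.78%). Letters shared with so many promoters describe the stretches and set none of them apart.

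Cd3g had log2 ratios of -0.94 and -0.78 on the 2 arrays of M8/F8, while M8/M3 had -0.84 and -0.67 and M8/M4 had -0.65 and -0.52. In every one of these 6 hybridizations the M8 pool was the lower one. The 6 arrays carried only 2 M8 pools between them, which holds for the same tally in the genes below. The ratios were -0.13 and -0.10 in M3/F3, -0.32 and 0.03 in M4/F4, -0.12 and -0.24 for F8/F3, and -0.07 and -0.18 for F8/F4. Before 8 wk, and in females at any age, the compared pools thus lay close together, and in M4/F4 the 2 arrays fell on either side of 0. The fitted decrease was 1.81-fold in M8/F8 (log2 -0.86, SE 0.09, limma adjusted p 0.000567), 1.69-fold in M8/M3 (adjusted p 0.000992) and 1.5-fold in M8/M4 (log2 -0.59, adjusted p 0.00302), the last of them just past the fold threshold. M8/M4 lost its call without its array 1 and in the error-weighted average. With the shared pools in the covariance all 3 calls held, with larger limma adjusted p. They were 0.0065 in M8/F8, 0.0109 in M8/M3 and 0.0289 in M8/M4. With normexp background correction and loess normalization the decrease shrank to a log2 ratio of -0.45 in M8/F8, -0.35 in M8/M3 and -0.38 in M8/M4, with adjusted p of 0.0179, 0.0477 and 0.0369, and none of the 3 passed 1.5-fold. That correction adds an offset of 50 to each signal, and the processed signal of Cd3g was 39.3 to 60.3 in the 6 M8 channels and 67.4 to 118 in the 6 F8 channels.

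The change of Cd3g with age was compared between the sexes in the same fit. From 3 to 8 wk it was -0.75 in males and -0.18 in females, a difference of -0.57 (SE 0.12, limma adjusted p 0.0370). From 4 to 8 wk it was -0.59 against -0.12, a difference of -0.46 (adjusted p 0.126). The first difference passed the adjusted p and fell short of 1.5-fold, so it was not called, and the second did not pass the adjusted p. Of all named genes, 4.28% were called in the first contrast (2.06% higher and 2.22% lower in males) and 1.79% in the second (1.02% and 0.765%), and 0 of the 9 lymphocyte genes were.

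Cd3d showed the same direction with smaller ratios. They were -0.45 and -0.22 in M8/F8, -0.66 and -0.35 for M8/M3, and -0.47 and -0.49 in M8/M4, so that M8 was again the lower pool on all 6 arrays. In M8/M3 and M8/M4 the fitted decreases of 1.42-fold and 1.39-fold passed the adjusted p (0.0147 and 0.0181) but not the fold threshold, and in M8/F8 neither was passed (1.26-fold, adjusted p 0.0670). In the females the fitted ratios of Cd3d from 3 and from 4 to 8 wk were -0.22 and -0.14 (SE 0.11), which did not pass.

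Cd3e went the other way. Its ratios were 0.18 and 0.23 in M8/F8, 0.44 and 0.42 for M8/M3 and 0.38 and 0.14 in M8/M4, and the M8 pool was the higher one on all 6 arrays. The fitted log2 ratio of 0.43 in M8/M3 had an SE of 0.05 and an adjusted p of 0.00133, and at 1.35-fold it did not reach the threshold. In M8/F8 (0.20), M8/M4 (0.26) and F8/F3 (0.21) the adjusted p was 0.0319, 0.0121 and 0.0282, again without a call. Cd3e had the highest signal of the 3 CD3 probes in every group, 126 to 372 over the 28 channels against 39.3 to 130 for Cd3g and 37.6 to 95.4 for Cd3d, although signals of different probes do not compare amounts of RNA. Over the 14 arrays Pearson's r was 0.75 between Cd3g and Cd3d, -0.67 between Cd3g and Cd3e and -0.61 between Cd3d and Cd3e, as a description only, since the arrays share pools.

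Cd4 and Cd8a encode the coreceptors that divide helper from cytotoxic T cells. The bright Cd4 probe had ratios of 0.57 and 0.18 in M8/F8, 0.41 and 0.22 for M8/M3, and 0.05 and 0.44 in M8/M4, with M8 the higher pool on all 6 arrays. In F8/F3 they were -0.42 and -0.08, and in F8/F4 -0.43 and 0.08. Array 1 gave the larger difference in M8/F8 and array 2 in M8/M4, and none of the 7 comparisons was called (M8/F8 log2 0.38, SE 0.11, adjusted p 0.0497, 1.30-fold). The signal of this probe ran from 561 to 5655 over the 28 channels. On the second Cd4 probe, tested in M8/M4, F8/F3 and F8/F4, the log2 ratios were 0.11, 0.18 and 0.20 (SE 0.155), with adjusted p from 0.430 to 0.688. The fitted values of the bright probe there were 0.24, -0.25 and -0.18. The 2 probes thus had opposite signs in both female comparisons, and neither was called.

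Cd8a was tested in the 4 age comparisons, where a younger group was well above background on both arrays, and not in the 3 comparisons of the sexes. In M8/M3 its better probe had ratios of -0.30 on array 1 and -0.98 on array 2, and a fitted log2 ratio of -0.64 (SE 0.12, limma adjusted p 0.00698). M8 was below M3 on both arrays, but the arrays differed from each other by more than the smaller of both ratios, and the SE is small because the model gives each probe a dye term. The call was lost without that term (adjusted p 0.275), without array 1, with both groups required above background, in the error-weighted average and with normexp and loess. Since M8 was well above background on neither array, the decrease is given only as at least 1.04-fold. That bound is the ratio after normexp and loess (log2 -0.06), where the added offset shrinks the ratios of dim spots. In M8/M4, F8/F3 and F8/F4 the log2 ratios were -0.36, -0.39 and -0.34, with no call.

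Cd79a and Cd79b encode the signalling pair of the B cell receptor, and Ms4a1 encodes CD20, a surface protein of mature B cells. Cd79a was tested in no comparison, and its signal was 2.10 to 14.6 over the 28 channels. Cd79b, with a median signal of 148 and a highest of 228, had ratios of -0.20 and -0.22 in M8/F8, -0.53 and -0.14 for M8/M3, -0.19 and -0.05 in M8/M4, and 0.37 and -0.08 in M3/F3. M8 was the lower pool on all 6 arrays that carried it, by a fitted log2 ratio of -0.21, -0.33 and -0.12 (SE 0.08), none of which was called. Of these, M8/M3 had an adjusted p of 0.0256 at 1.26-fold, and M4/F4 had 0.0398 at 1.23-fold.

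Ms4a1 varied more between arrays than between groups. In M8/F8 the ratios were -0.43 and 0.30, in M8/M3 -0.62 and 0.11, in M8/M4 -0.19 and 0.53, and in M4/F4 -0.72 and -0.02. The 2 arrays lay on opposite sides of 0 in 4 of the 7 comparisons, M8/F8, M8/M3, M8/M4 and F8/F4, and the SE of 0.29 was the largest among the 7 genes tested in every comparison. No comparison passed the adjusted p (0.409 to 0.908).

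Nkg7 encodes a protein of the granules of natural killer and cytotoxic T cells, and its 2 probes disagreed. The brighter one, with signals of 221 to 493, had ratios of 0.11 and -0.09 in M8/F8 and no fitted log2 ratio beyond 0.19 in any comparison. That value was in M8/M3 (0.16 and 0.23), where it passed the adjusted p (0.0259) and not the fold, in the direction opposite to the dimmer probe. The dimmer one, with signals of 19.5 to 74.3, had -0.50 and -0.81 in M8/F8, -0.70 and -0.39 for M8/M3 and -0.66 and -0.36 in M8/M4, with M8 the lower pool on all 6 arrays. In M8/F8 the dimmer probe was called lower (1.58-fold, log2 -0.66, SE 0.08, limma adjusted p 0.00102), while in M8/M3 and M8/M4 it passed the adjusted p (0.00229 and 0.00317) and not the fold. The call was lost without array 2, with both groups required above background, with the shared pools in the covariance, in the error-weighted average and with normexp and loess (log2 -0.24). Pearson's r over the 14 arrays was 0.85 between the dimmer Nkg7 probe and Cd3g and 0.03 between the 2 Nkg7 probes. By the rule that takes the brighter probe of a gene, Nkg7 counted as not called.

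Other genes of the same cells were taken from 4 lists, 75 genes of T cells, B cells, B cell precursors and natural killer or cytotoxic cells, 63 of them tested in at least 1 comparison. In 8 wk liver, T cell and cytotoxic genes were called lower in males and B cell genes were not, as counted next, and the difference between the lists was not tested. Of 17 T cell genes tested in M8/F8, 7 were lower, 2 were higher and 8 were not called, with a median log2 ratio of -0.38. Of 13 natural killer and cytotoxic genes, 7 were lower, 0 higher and 6 not called (median -0.69). Of 20 B cell genes, 0 were called in either direction (median -0.14), 17 of the 20 having a ratio under 1. Over all genes tested in M8/F8 the median was 0.00, and 7.1% were called, 4.21% lower and 2.89% higher. All 4 lists together gave 17 calls among 53 genes tested, 15 of them lower.

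Among the T cell genes, Gata3, a transcription factor of T cells that other tissues also use, fell most in M8/F8, with ratios of -1.36 and -1.98 and a fitted log2 ratio of -1.67 (SE 0.27, limma adjusted p 0.00439). It was also lower in M8/M3 (-2.20) and M8/M4 (-1.58). Zap70, the kinase that docks on the CD3 chains, was lower in M8/F8 (-1.10 and -1.35 on the arrays, fitted -1.23) and higher in F8/F3 (1.24 and 1.97, a fitted 3.04-fold). Icos, a costimulatory receptor, was lower in M8/F8 (-0.70), M8/M3 (-0.60) and M8/M4 (-0.99). In M8/F8 both M8 pools lay below the F8 pools for all 3 genes. Gata3 and Icos lost their calls in M8/F8 and M8/M4 without array 2, and Icos lost that in M8/M3 without either array, while both calls of Zap70 held under all 14 alternatives.

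Other T cell genes moved up. Cd6, a receptor on the T cell surface, was higher in M8/F8 with ratios of 1.62 and 1.81 (fitted 1.72, SE 0.38, limma adjusted p 0.0155), and also in M8/M3 (2.44) and M8/M4 (1.86). The M8/F8 call of Cd6 was lost without either array and with shared pools in the covariance, that in M8/M4 without array 2, and that in M8/M3 with normexp and loess, where the log2 ratio was 0.52, and with both groups required above background, M3 being well above it on 1 array. Cd28, the main costimulatory receptor, was higher in M8/M3 (0.82, a call lost without either array) and M8/M4 (0.96, lost without array 2). Ubash3a, a regulator of receptor signalling, was tested and called in M8/M4 alone (2.36 and 2.01), where M8 was well above background on both arrays and M4 on neither, an increase of at least 1.29-fold. Sh2d1a, an adaptor protein, was lower in M8/M3 by at least 1.08-fold. Cd96, a receptor, was lower in M8/M3 and M8/M4 by at least 1.11-fold and at least 1.07-fold. These bounds, and that of Ubash3a, are also the ratios after normexp and loess. The call of Sh2d1a was lost under 8 of 14 alternatives and those of Cd96 under 6 and 8 of 14. In M8/M3 both genes lost the call without array 1, and in M8/M4 the call of Cd96 was lost without either array. Thus Cd6 and Cd28 shared the direction of Cd3e and the bright Cd4 probe against M8, and Gata3 and Icos that of Cd3g and Cd3d.

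Natural killer and cytotoxic genes were lower in M8 or not called. Gzmb, a granule protease that kills target cells, was lower in M8/F8 (-1.30 and -0.67, fitted -0.99), M8/M3 (-1.49) and M8/M4 (-1.20), and in females from 3 to 8 wk (-0.79) and from 4 to 8 wk (-0.61). Fasl, the ligand of a death receptor, was lower in M8/F8 (-0.99 and -1.54, fitted -1.26), M8/M3 (-0.67) and M8/M4 (-0.87), while the females had 0.00 and 0.16 from 3 and 4 to 8 wk. For these calls of Fasl, M8 was well above background on 1 array of each comparison, and they were lost under 4, 6 and 5 of 14 alternatives, in M8/M3 without either array and in M8/M4 without array 1. The calls of Gzmb in M8/F8, F8/F3 and F8/F4 were lost without array 1. Xcl1, a chemokine of these cells, was lower in M8/F8 (-0.78), M8/M3 (-1.26), M8/M4 (-1.06) and F8/F3 (-0.72). Its calls in M8/F8 and F8/F3 were lost without either array and with shared pools, and that in M8/M4 without array 2. With normexp and loess all 4 were lost, at -0.26 in M8/F8, -0.29 in M8/M3, -0.54 in M8/M4 and -0.38 in F8/F3. M8 was well above background on 1 array of M8/F8.

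Il2rb, a chain of the receptor for interleukin 2, was lower in M8/F8 (-1.63 and -0.42, fitted -1.02), but with the replicate block its adjusted p was 0.0627, and without array 1 its log2 ratio was -0.35 (adjusted p 0.481). Klrk1, an activating receptor, was called lower in M8/F8, although its arrays read 0.02 and -2.03 and the call was lost under 6 of 14 alternatives, among them without array 2, without the dye term and with normexp and loess (-0.20). For Klrk1 and Il2rb in M8/F8 and Tbx21 in M8/M3, M8 was well above background on 1 array. Gzma, the other common granzyme, was lower in M3/F3 (-0.62), M8/M3 (-0.71), F8/F3 (-0.81) and F8/F4 (-0.64), the single lymphocyte gene called between the sexes before 8 wk. All 4 of its calls were lost without either array, and that in M3/F3 also when p-values were adjusted within that comparison (0.264). Ncr1, a natural killer receptor, was lower in M8/M4 (-0.79), and Tbx21, the transcription factor T-bet, in M8/M3 (-0.68) and M8/M4 (-0.74). The calls of Tbx21 were lost under 7 and 6 of 14 alternatives, without either array of each comparison among them, and that of Ncr1 under 4, array 2 left out among them.

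**Figure D3:**
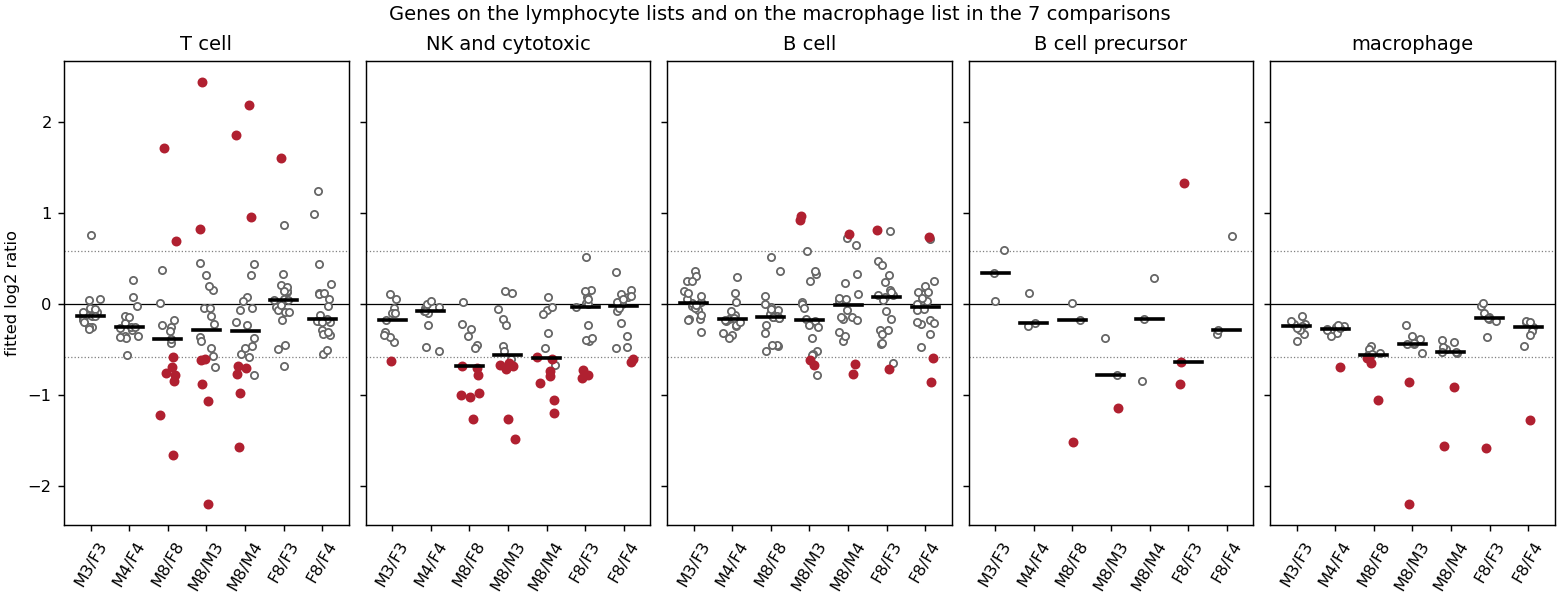
Fitted log2 ratio of each tested gene (points; filled where called) on the 4 lymphocyte lists and the macrophage list in the 7 comparisons, with the median of the list (bar) and 1.5-fold (dotted). In M8/F8 filled points lie below 0 for T cell, cytotoxic, B cell precursor (1) and macrophage genes, with 2 above 0 among T cell genes, and the B cell panel has none.

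With age, the lists gave 18 calls among 57 genes tested in M8/M3 (4 higher, 14 lower) and 18 among 59 in M8/M4 (4 higher, 14 lower). In females there were 9 among 59 from 3 to 8 wk (3 higher, 6 lower) and 5 among 61 from 4 to 8 wk (1 higher, 4 lower). The shares over all named genes were 18.9% and 11.7% in males and 12.6% and 6.72% in females, and the female counts of the lists lay near theirs. Cytotoxic genes made up 6 of the 14 lower genes in M8/M3 and 7 of the 14 in M8/M4, and in females 3 of 6 and 2 of 4. Of the genes tested they were 14 of 57, 14 of 59, 15 of 59 and 16 of 61, and the female counts are small. The calls over all 4 lists moved by over 1.5 times when 1 array was left out. They moved to 6 or 11 in M8/M3, to 6 or 10 in M8/M4 and to 3 or 4 in F8/F3, whichever array it was. They fell to 0 without array 1 of F8/F4, and from 17 to 7 without array 2 of M8/F8.

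Of the B cell genes tested in males, 4 of 20 were called from 3 to 8 wk (2 higher, 2 lower) and 3 of 20 from 4 wk (1 higher, 2 lower), beside 18.9% and 11.7% of all named genes. In females the counts were 2 of 21 (1 higher, 1 lower) and 3 of 21 (1 higher, 2 lower), beside 12.6% and 6.72%. Blnk, the linker protein below the B cell receptor, was higher in all 4 age comparisons (0.92 and 0.77 in males and 0.81 and 0.74 in females, from 3 and from 4 to 8 wk). Jchain, the joining chain of secreted antibody, was higher in M8/M3 (0.97; 0.59 and 1.34 on the arrays). Bank1, a scaffold of B cell signalling, was lower in M8/M4 (-0.77) and F8/F4 (-0.60), and Cr2, a complement receptor, was lower in M8/M3 (-0.62) and F8/F3 (-0.72). Without either array the calls of Cr2, of Jchain and of Blnk in F8/F3 and M8/M4 were lost, and without 1 of the arrays those of Bank1 (array 2 of M8/M4, array 1 of F8/F4) and of Blnk in F8/F4 (array 1).

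Fcrla, an Fc receptor-like protein of B cells, was lower in M8/M3 (-0.67), Cd72, an inhibitory receptor, in M8/M4 (-0.66), and Ebf1, a transcription factor that sets B cell identity, in F8/F4 (-0.86; -1.53 and -0.20 on the arrays, with F8 well above background on 1 of them). Among the precursor genes are Vpreb1, a part of the surrogate light chain of the early receptor, and its relative Vpreb3. Vpreb3 was lower in M8/M3 (-1.15) and F8/F3 (-0.88) and Vpreb1 in F8/F3 (-0.64). Dntt, the polymerase that adds bases at antigen receptor joints, was lower in M8/F8 (-0.85 and -2.19, fitted -1.52) and higher in F8/F3 (1.32 and 1.34, fitted 1.33). Without array 1 the calls of Fcrla, of Vpreb3 in M8/M3 and of Ebf1 were lost. Without array 2 those of Cd72 in M8/M4, of Vpreb3 and Vpreb1 in F8/F3 and of Dntt in M8/F8 were lost, and that of Dntt in F8/F3 was lost without either array. Rag1 and Rag2, the recombinase of early lymphocytes, were not tested in any comparison, being near background. With normexp and loess the calls of Cr2, Jchain, Fcrla, Cd72, Ebf1, Vpreb1 and of Vpreb3 in M8/M3 were lost. Among the T cell and cytotoxic genes above, so were those of Sh2d1a, Cd96, Ubash3a, Fasl, Il2rb, Ncr1 and Tbx21, of Icos in M8/F8 and M8/M3, of Cd28 in M8/M3, of Gzmb in F8/F4 and of Gzma in M3/F3, M8/M3 and F8/F4.

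**Figure D4:**
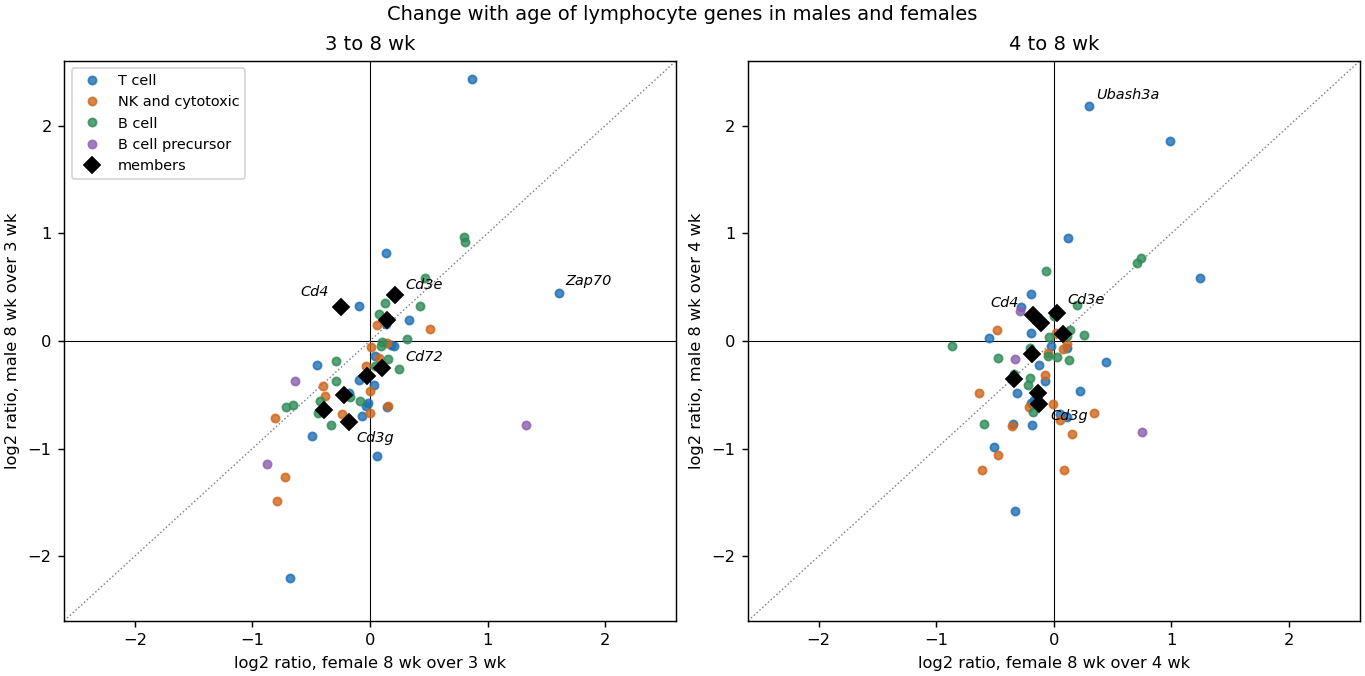
Log2 change from 3 to 8 wk (left) and from 4 to 8 wk (right) in males (vertical axis) against females (horizontal axis) for the tested genes of the 4 lists (coloured circles) and for the lymphocyte genes described first (black diamonds). The dotted line marks equal change, and Cd3g lies below it and Cd4 above it in both panels. Ubash3a, Zap70 and Cd72 are named where the sexes differed at an adjusted p under 0.05.

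Markers of other cells moved with the groups as well, and their part in the results above was not tested. All 9 macrophage genes with a probe had a ratio under 1 in M8/F8 (median -0.56), and 4 of them were called lower, among them Adgre1 (-0.65), Marco (-1.05) and C1qa (-0.59). Their summed level was 47419 to 57218 in the M8 pools against 72697 to 78465 in the F8 pools. The 9 ratios were also under 1 in M8/M3 (median -0.44) and M8/M4 (median -0.53), where Adgre1 (-0.86 and -0.92) and Marco (-2.20 and -1.56) were called lower. Marco was called lower in M4/F4 (-0.69), F8/F3 (-1.58) and F8/F4 (-1.28) as well. The 10 genes of all leukocytes had a median of -0.41 in M8/F8 with 0 called, and 9 of their 10 ratios were under 1. In M8/M3 (median -0.35) Laptm5 (-0.77), Cd52 (-0.65) and Rac2 (-0.63) were lower and Lcp1 higher (0.87). In M8/M4 (median -0.37) Ptprc (-0.66), Cd52 (-0.66) and Rac2 (-0.67) were lower, and in F8/F3 Lcp1 was higher (0.67). All 9 macrophage genes and all 10 leukocyte genes were well above background in every channel. The 5 genes of antigen presentation by MHC class II, which B cells also use, had 5 ratios under 1 in M8/F8 (median -0.59), with H2-Ab1 (-0.85) and Cd74 (-0.59) called lower. In F8/F3 3 of them were higher, H2-Eb1 (1.01), H2-Ab1 (0.90) and Cd74 (0.89), and in F8/F4 Cd74 was (0.65). The change of H2-Ab1 with age was called lower in males than in females from 3 wk (difference -0.69, limma adjusted p 0.00996) and from 4 wk (-0.96, adjusted p 0.00652). Of the hepatocyte genes, Alb was called lower in M8/M3 (-1.10 and -0.33, fitted -0.71) and M8/M4 (-1.14 and -0.21, fitted -0.68).

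Most genes of red cell precursors and neutrophils were lower at 8 than at 3 wk. Of the erythroid genes 4 of 6 tested were lower and 1 higher in M8/M3, and 5 of 7 were lower in F8/F3, and of the neutrophil genes 6 of 7 were lower in each. Between the sexes, 5 of 7 neutrophil genes were lower in M3/F3 (median -0.74), where Gzma was called, and 2 of 6 tested, S100a8 (-0.77) and S100a9 (-0.94), were lower in M4/F4. Of the 4 genes on the thymocyte list 2 were tested, Dntt and Cd1d1, and both were higher in F8/F3 (1.33 and 1.03). Rag1 and Ptcra were near background, so no change in thymocytes is read from the list. Of the pancreas genes, Ctrb1 was higher in M8/F8 (0.59), M8/M3 (0.72) and M8/M4 (1.02), and Pnlip and Cela3b were not tested in any comparison.

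By the fixed rule, likeness was read for Cd4 and Cd79b, the T cell and B cell genes with the highest signal, as Pearson's r of the log2 ratios over the 14 arrays among 12842 genes. The arrays share pools, so the values are a description. Nearest to Cd4 were Mug1 (0.92), Mrpl4, Isoc2a, Nrf1 and Trmt112 (0.91 each), and nearest to Cd79b were Lcmt2 (0.90), 1700066B19Rik (0.85), Zc3h14, Aprt (0.84 each) and Cbl (0.83). For Cd3g, chosen after its values were seen, the nearest were Cdpf1 (0.95), H2-Q1, Acnat2 (0.94 each), Slco1a4 and Umps (0.93 each). No gene of the 4 lymphocyte lists was among these 15. At most 63 such genes were among the 12842 searched, too few for a count of 0 to tell anything. In M8/F8 the 5 genes nearest to Cd3g had log2 ratios of -1.15 for Cdpf1, -2.89 for H2-Q1, -2.17 for Acnat2, -1.74 for Slco1a4 and -0.35 for Umps.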

How the data were processed

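Two-colour Agilent arrays had been read with Agilent Feature Extraction 10.7.1.1, per the file headers. The authors deposited, for each spot, median signal intensity and local background, the processed intensity (background subtracted, then dyes normalized by linear and LOWESS steps), and the log10 ratio of red over green with its modelled log10 error. Here log10 ratios were changed to log2, turned by the labels' dyes and averaged over spots of a probe. The lymphocyte genes and all lists were chosen with earlier results of these data known.

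In R 4.3.3, limma 3.58.1 fitted 7 comparisons and 1 dye term per probe to 14 arrays, for 27387 probes with a group well above background in at least 1 comparison, and p-values were adjusted (Benjamini-Hochberg) over probes and comparisons together, or within each sex by age contrast. The study's Rosetta error model was not at hand, so limma took its place. The fit was tested on simulated data. A gene's probe was the one with the highest mean signal. Named genes were the 9 members, up to 8 called genes per lymphocyte list, up to 3 per other list and 5 like genes.

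Replicate numbers were taken as pairs, since the methods name 2 pools per group, too few mice for more: around the loops of M3, F3 and of M4, F4 with the 8 wk groups, replicate differences correlated at 0.88 and 0.88. Slides held 1 replicate each of several comparisons, so each array's value is also the value within its slide. Precision is limited by having 2 arrays in a comparison, and p-values measure the spread between pools and arrays. The normexp alternative used median signals, the files holding no mean signals.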

Additional observations from a re-analysis of the deposited data

Results flagged for a closer look

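In 4 genes the change with age differed between males and females at an adjusted p under 0.05 (limma). For Cd3g the difference (male minus female) from 3 to 8 wk was -0.57, for Zap70 it was -1.15 and for Cd72 it was -0.50 on the log2 scale, with adjusted p of 0.0370, 0.0213 and 0.0381. For Ubash3a the fitted difference from 4 to 8 wk was 1.88 (adjusted p 0.00234), but M4, F4 and F8 were well above background on neither array, so its size was not measured. It was 0.32 with normexp and loess, and the call was lost there, with both groups required above background, with shared pools in the covariance and in the error-weighted average. Zap70 and Ubash3a also passed 1.5-fold, and Cd3g and Cd72 did not. The difference of Zap70 was lost without either array of M8/M3 and without array 2 of F8/F3.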

How the results depend on the processing

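Of 244 single-gene values under 3438 alternatives, 3192 kept their side of the threshold, 188 lost a call, 58 gained one and no called value changed sign. Of the 3192, 73 were below the threshold in both and of opposite sign. The cause of each change was not tested, unless the alternative's construction gives it. Among the 9 lymphocyte genes, normexp and loess left 0 calls in M8/F8, 0 in M8/M3 and 0 in M8/M4. Without a threshold on the ratio the counts were 1 in M4/F4, 3 in M8/F8, 3 in M8/M4, 6 in M8/M3, 2 in F8/F3 and 1 in M8/M3 minus F8/F3. Any probe of a gene gave 2 in M8/F8. M8/M3 had 1 without the dye term, with both groups bright and in the error-weighted average, which left 0 in M8/M4. The 6 group means gave 1 in M8/M3 minus F8/F3.

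Among the other lymphocyte genes, normexp and loess gave 0 calls in M3/F3, 1 in M4/F4, 5 in M8/F8, 8 in M8/M4, 3 in M8/M3, 2 in F8/F4, and 1 and 0 in the 3 and 4 wk contrasts of the sexes. Without a threshold on the ratio there were 26 in M8/F8, 5 in M4/F4 and 3 in M3/F3. The 6 group means gave 14 in F8/F3 and 14 and 13 in the contrasts, and shared pools gave 11 in M8/F8 and 1 and 0. The contrasts had 4 and 4 in the error-weighted average, 1 and 2 with dye terms per scan day, 1 (3 wk) without the dye term and 0 (4 wk) with both groups bright. M3/F3 had 0 with dye terms per scan day, without the signal filter and with p adjusted within each comparison, and F8/F4 had 3 without the dye term and without the signal filter. The replicate block gave 2 in M8/M4 minus F8/F4 and otherwise ended only the call of Il2rb in M8/F8.

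Leaving out each array, the lymphocyte genes described first gave 1 to 3 calls in M8/M3, 0 to 1 in M8/M4 and 0 to 1 in M8/M3 minus F8/F3. The others gave 0 to 1 in M3/F3 and M4/F4, 7 to 12 in M8/F8, 6 to 10 in M8/M4, 6 to 11 in M8/M3, 0 to 6 in F8/F4, 3 to 4 in F8/F3, and 0 to 1 and 1 to 1 in the contrasts.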
